A study of Mus musculus with 9 samples.

Results

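The genes described here are the 44 genes, of 22322 in the deposited table, that its pathway annotation places under aminoacyl-tRNA biosynthesis. Membership was read from that annotation and used no measured value, and no symbol starting with mt- was among them. Aminoacyl-tRNA synthetases join each amino acid to its own tRNAs, which the ribosome then reads to build protein. For most amino acids, mouse cells keep a cytosolic enzyme and a separate nuclear-encoded enzyme that is imported into mitochondria, and the symbol of the latter ends in 2. Many cytosolic synthetase genes are known targets of ATF4, a transcription factor that cells raise when amino acids run short or proteins misfold.

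By symbol, 20 members encoded cytosolic synthetases and 18 fell into the mitochondrial class. A further 4 members made or modified charged tRNA in mitochondria, namely Gatb, Gatc and Qrsl1, which encode the amidotransferase that makes mitochondrial glutaminyl-tRNA, and Mtfmt, which formylates the initiator methionyl-tRNA. The other 2, Pstk and Sepsecs, convert seryl-tRNA to selenocysteinyl-tRNA. The class by symbol has exceptions, since Gars and Kars each encode both forms of their enzyme, and Tarsl2 ends in 2 but encodes a threonyl-tRNA synthetase-like protein not known as the mitochondrial enzyme. All 44 genes passed the low-count filter of edgeR, the package used for testing, with counts per library from 78 for Ears2 to 16941 for Nars.

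RNA-seq was performed on wild-type mouse RGCs (retinal ganglion cells, the neurons that carry visual signals to the brain) in 3 groups of 3 libraries. Normal RGCs were untreated, aging RGCs had received 30 mg/mL of D-galactose, and the third group, called medium-treated RGCs below and aging RGCs + USCs medium in the plots, were aging RGCs given medium conditioned by USCs, stem cells grown from human urine, with the USCs removed. Per the study's methods the RGCs were bought and passaged as an adherent culture in serum. Per the same methods, the 3 libraries of a group came from replicate wells, and neither these nor the labels say that the wells were separate cultures beyond that, so p-values measure the spread between wells. Library totals were 22342288, 20062796 and 19814241 expected counts in normal RGCs, 18189616, 19188248 and 19556335 in aging RGCs, and 20362398, 21054326 and 20238824 in medium-treated RGCs.

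The labelled cell type was only in part seen in its markers. Of 11 RGC markers, Pou4f2, Pou4f3 and Atoh7 were at 0 in all 9 libraries, Thy1, Slc17a6, Sncg, Nefm and Pou4f1 averaged under 1 CPM in every group, and Rbpms, Nefl and Isl1 were present. CPM are counts divided by the library total, after scaling of the totals by the trimmed mean of M-values (TMM). The summed level of the 11 genes was 139, 146 and 150 CPM in normal RGCs, 99.2, 103 and 102 CPM in aging RGCs, and 75.4, 78.6 and 83.5 CPM in medium-treated RGCs. The step with the medium was mainly that of Nefl, with means of 63.6, 38.4 and 17.2 CPM in the same order of groups. Rbpms, at 61.2, 49.6 and 48.0 CPM, and Isl1, at 18.9, 11.9 and 13.0 CPM, were not called between medium-treated and aging RGCs (edgeR, adjusted p = 0.49 and 0.314). Other lists moved too. The 5 mesenchymal markers, led by Col3a1, summed to 428 to 508 CPM, 396 to 408 CPM and 242 to 246 CPM in the same order of groups, the 5 epithelial markers, led by Krt8, to 1050 to 1140 CPM, 1080 to 1100 CPM and 1240 to 1280 CPM, and the 5 Müller glia markers, nearly all Vim, to 1760 to 1850 CPM, 2060 to 2130 CPM and 2020 to 2170 CPM. The epithelial markers did not move together. Krt8 rose, with means of 410.0, 559.8 and 714.3 CPM in the same order of groups. Krt18, at 320.5, 252.1 and 281.2 CPM, and Krt19, at 364.7, 274.4 and 258.1 CPM, were below normal in both other groups. The 7 photoreceptor markers did not exceed 2.11 CPM in sum, with Opn1mw, Crx and Rcvrn at 0. The 8 macrophage markers, led by Cd68, summed to 68.6, 59.2 and 58.0 CPM, 50.7, 45.9 and 44.4 CPM, and 33.7, 30.6 and 53.2 CPM, so that medium-treated replicate 3 stood apart from the other 2. Cd68 itself was not lower in aging RGCs, with means of 38.6, 41.5 and 31.3 CPM in the same order of groups. Lyz2 was, at 15.3, 3.16 and 5.22 CPM, as were Csf1r and Adgre1. The part of these markers in the results below was not tested. In bulk RNA, fewer cells of a type and less RNA per cell cannot be told apart.

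Per transcript length, the cytosolic genes were far more abundant than the mitochondrial ones. The unit for this order is the deposited FPKM, since CPM cannot be compared between genes. In normal RGCs the mean FPKM of the 20 cytosolic genes ran from 24.6 to 344.5 with a median of 86.3, and that of the 18 mitochondrial genes from 1.41 to 31.4 with a median of 6.47. The leading 18 ranks were all cytosolic. Sars, the seryl-tRNA synthetase, led with 344.5 ± 47.5 FPKM (SD, n = 3), followed by Nars, the asparaginyl enzyme, with 298.8 ± 13.0 FPKM and Rars, the arginyl enzyme, with 265.9 ± 19.2 FPKM. The libraries of Sars and Nars did not overlap, those of Nars and Rars did, and Gars, the glycyl enzyme, lay below Rars at 190.1 ± 11.4 FPKM without overlap. Iars2, the mitochondrial isoleucyl enzyme, was the highest of its class at 31.4 ± 0.642 FPKM and held rank 19, above Farsa and Wars. Mars2, the mitochondrial methionyl enzyme, was lowest at 1.41 ± 0.098 FPKM. Of the 43 pairs of neighbours in this order, 17 were separated, with no overlap of their 3 libraries in normal RGCs.

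**Figure D1:**
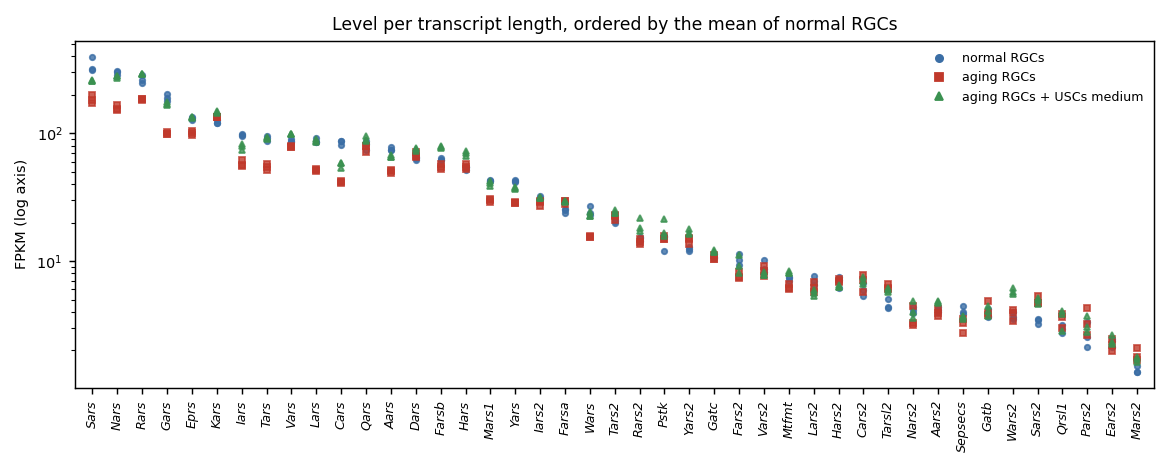
Deposited FPKM on a log axis for 43 of the 44 genes in all 9 libraries, ordered from left to right by the mean of normal RGCs, with 1 point per library and a symbol for each group. The first 18 genes are cytosolic synthetases, and Iars2 is the first mitochondrial one.

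The first comparison asked what D-galactose changed. In aging RGCs most cytosolic synthetase genes were lower than in normal RGCs, and most mitochondrial ones did not pass the test. Of the 20 cytosolic genes, 15 fell, 3 rose and 2 were not called at an adjusted p under 0.05, while of all 12145 genes tested 23.0% were called lower and 23.6% higher. At a fold of at least 1.5, 9 of the 20 were lower and 0 higher, against 4.82% and 3.10% of all genes tested. The median log2 fold change of the 20 was -0.52, with a range of -0.99 to 0.24, beside a median of 0.00185 and an interquartile range of -0.18 to 0.18 over all genes tested. Of the 18 mitochondrial genes, 4 rose, 2 fell and 12 were not called. Of these 18, 0 reached a 1.5-fold change in either direction, and their median was -0.02, with a range of -0.40 to 0.52. Most mitochondrial genes had lower counts and larger SEs than the cytosolic ones, so similar changes could be called in the cytosolic class only. Cars2, at 0.27 ± 0.12 (SE, adjusted p = 0.0705), was not called, while Farsa, at 0.24 ± 0.052 (SE, adjusted p = 0.000342), was. Summed over the 20 cytosolic genes, the level was 5781, 6136 and 5897 CPM in normal RGCs and 4121, 4173 and 4051 CPM in aging RGCs, so that aging RGCs held 69.3% of the normal mean. Counts of 0 given in the text for the synthetase classes, from edgeR, were also 0 at an unadjusted p under 0.05 and with DESeq2, except that DESeq2 put 1 mitochondrial gene past 1.5-fold with the medium against aging RGCs. For the mitochondrial class the sums were 443, 429 and 438 CPM and 450, 432 and 443 CPM, which overlapped, with a mean at 101% of normal.

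**Figure D2:**
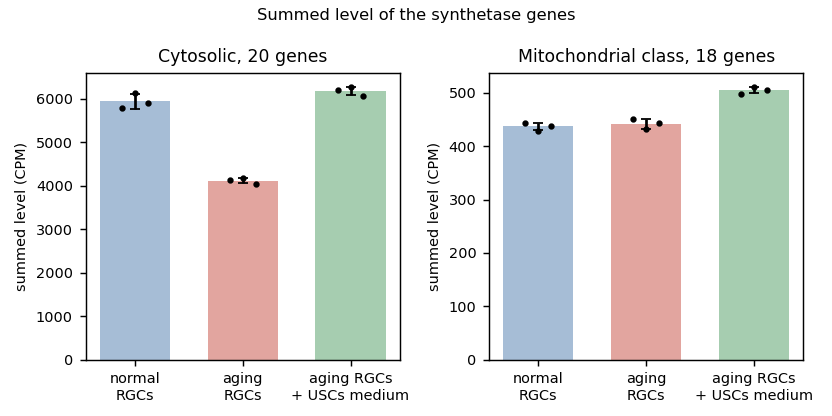
Summed level in CPM of the 20 cytosolic synthetase genes (left) and of the 18 genes of the mitochondrial class (right), as bars for the mean of 3 libraries, error bars for the SD and points for single libraries. The cytosolic sum is 5938 ± 181 CPM in normal RGCs, 4115 ± 61.2 CPM in aging RGCs and 6175 ± 97.8 CPM in medium-treated RGCs, and the mitochondrial sum is 437 ± 7.12, 442 ± 9.18 and 505 ± 5.96 CPM.

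The largest decrease was that of Cars, the cysteinyl-tRNA synthetase (GRCm38 chr7:143557230-143600090, minus strand), which was at 209, 211 and 203 CPM in normal RGCs, 102, 105 and 106 CPM in aging RGCs, and 155, 155 and 142 CPM in medium-treated RGCs. Its log2 fold change in aging against normal RGCs was -0.99 ± 0.039 (SE, adjusted p = 7.82e-18), and the libraries of the groups did not overlap. Nars was at 734, 805 and 772 CPM in normal RGCs, 398, 424 and 394 CPM in aging RGCs, and 754, 757 and 725 CPM in medium-treated RGCs. It fell by 0.93 on the log2 scale in aging RGCs (SE 0.035, adjusted p = 3.36e-18), and the lowest normal library lay far above the highest aging one. Gars, the glycyl enzyme (chr6:55038007-55079500, plus strand), was at 437, 467 and 416 CPM in normal RGCs, 232, 241 and 234 CPM in aging RGCs, and 418, 439 and 418 CPM in medium-treated RGCs, a log2 fold change of -0.90 ± 0.037 (SE, adjusted p = 1.89e-17) in aging RGCs. All 3 normal libraries of Gars were above all 3 aging ones. Sars (chr3:108424865-108445209, minus strand) was at 472, 528 and 474 CPM in normal RGCs, 272, 285 and 276 CPM in aging RGCs, and 416, 427 and 411 CPM in medium-treated RGCs. Its log2 fold change was -0.82 ± 0.038 (SE, adjusted p = 1.62e-16). Tars, the cytosolic threonyl enzyme (chr15:11382301-11399665, minus strand), was at 339.9, 372 and 361 CPM in normal RGCs, 214, 227 and 206 CPM in aging RGCs, and 389, 377 and 378 CPM in medium-treated RGCs. Its log2 fold change was -0.73 ± 0.038 (SE, adjusted p = 3.38e-15). For both genes the aging libraries were the low group, with no overlap.

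The other cytosolic genes that fell did so by less. Lars, Iars, Wars and Aars, the leucyl, isoleucyl, tryptophanyl and alanyl enzymes, had log2 fold changes of -0.73, -0.68, -0.68 and -0.60 in aging RGCs, and these were the remaining genes past 1.5-fold. Yars, Rars and Mars1, the tyrosyl, arginyl and methionyl enzymes, were at -0.54, -0.50 and -0.48. Eprs, which encodes the glutamyl and prolyl enzymes as a single protein, fell by 0.35, Farsb, the beta subunit of the phenylalanyl enzyme, by 0.17, and Vars, the valyl enzyme, by 0.16, all on the log2 scale. In the opposite direction, Farsa, the alpha subunit of that same phenylalanyl enzyme, rose by 0.24 ± 0.052 (SE, adjusted p = 0.000342), Kars, the lysyl enzyme, by 0.15 ± 0.033 (SE, adjusted p = 0.000386) and Dars, the aspartyl enzyme, by 0.12 ± 0.040 (SE, adjusted p = 0.0195). The call of Dars was lost when aging replicate 1 (log2 fold change 0.08, adjusted p = 0.154) or normal replicate 1 (0.09, adjusted p = 0.0978) was left out, without TMM factors (adjusted p = 0.0567) and with limma on log2(FPKM + 1) (adjusted p = 0.092). Qars, the glutaminyl enzyme, and Hars, the histidyl enzyme, did not pass the test at 0.02 (adjusted p = 0.615) and 0.06 (adjusted p = 0.313).

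**Figure D3:**
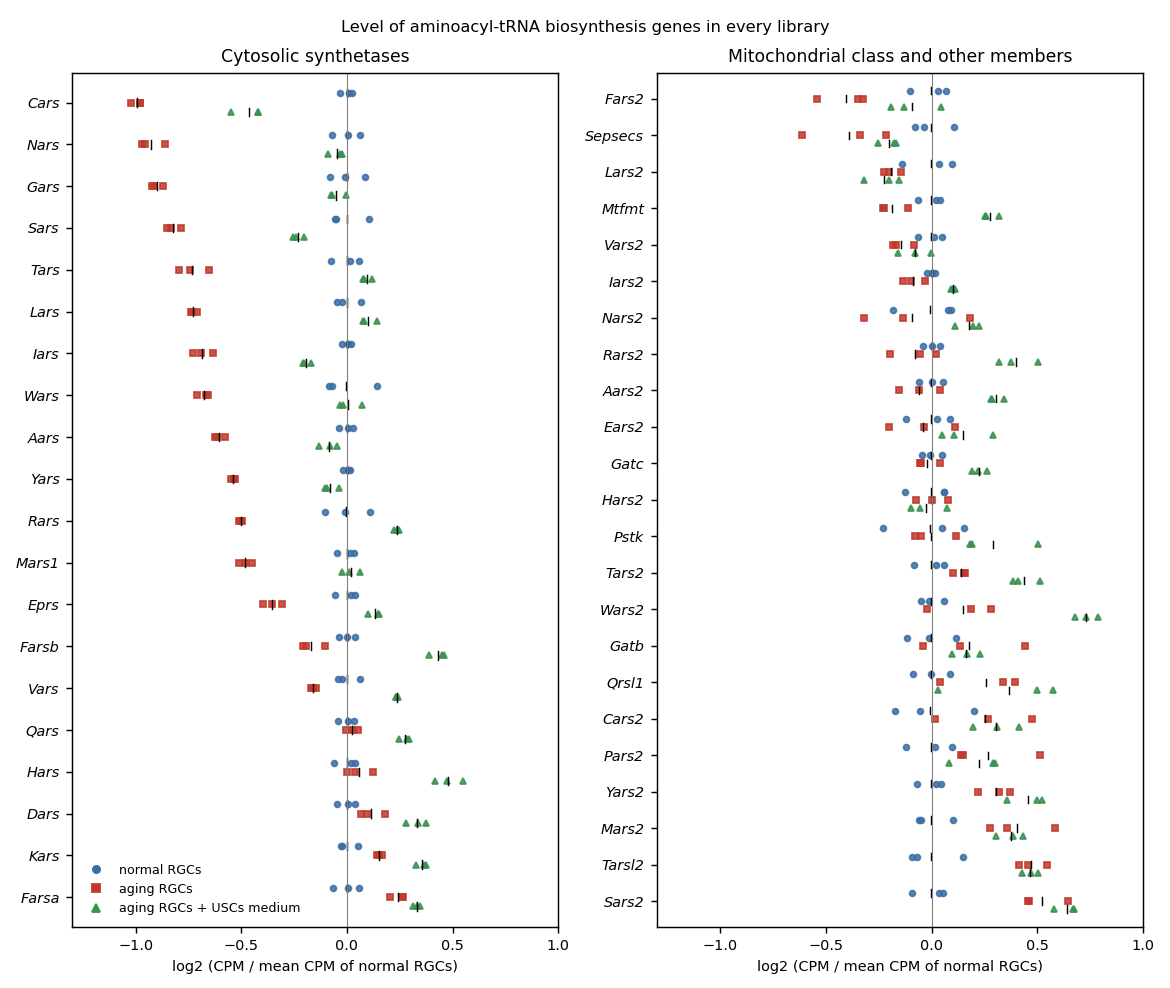
Level of 43 members in all 9 libraries as log2 of CPM over the mean CPM of normal RGCs, with circles for normal RGCs, squares for aging RGCs, triangles for medium-treated RGCs and short black lines for group means on the log2 scale. On the left, the aging libraries of the cytosolic genes from Cars to Vars lie below the normal ones. On the right, the aging libraries lie on both sides of the normal ones, from Fars2 at the top to Sars2 at the bottom.

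In the mitochondrial class 4 of 18 genes rose in aging RGCs, near the 23.6% of all genes tested, and 2 fell, against 23.0%. Sars2, the mitochondrial seryl enzyme (chr7:28741992-28753871, plus strand), was at 6.24, 5.72 and 6.32 CPM in normal RGCs, 8.38, 9.53 and 8.36 CPM in aging RGCs, and 9.09, 9.68 and 9.73 CPM in medium-treated RGCs, a log2 fold change of 0.52 ± 0.12 (SE, adjusted p = 0.000755) in aging against normal RGCs. Its aging libraries were all above the normal ones, while the cytosolic Sars moved down. Tarsl2 was at 13.3, 13.6 and 15.8 CPM in normal RGCs, 19.0, 20.8 and 19.5 CPM in aging RGCs, and 19.7, 19.1 and 20.2 CPM in medium-treated RGCs, a log2 fold change of 0.48 ± 0.084 (SE, adjusted p = 3.13e-05). Mars2 was at 16.6, 14.8 and 14.9 CPM in normal RGCs, 18.7, 23.1 and 19.8 CPM in aging RGCs, and 20.2, 19.1 and 20.8 CPM in medium-treated RGCs, a log2 fold change of 0.41 ± 0.087 (SE, adjusted p = 0.000293). Both were higher in every aging library than in any normal one. Yars2, the mitochondrial tyrosyl enzyme, was at 20.1, 18.6 and 19.8 CPM in normal RGCs, 24.3, 22.7 and 25.2 CPM in aging RGCs, and 27.5, 28.0 and 24.9 CPM in medium-treated RGCs, a log2 fold change of 0.30 ± 0.075 (SE, adjusted p = 0.00134). Fars2, the mitochondrial phenylalanyl enzyme, was the strongest decrease of the class, at 13.2, 14.5 and 14.9 CPM in normal RGCs, 11.1, 9.73 and 11.3 CPM in aging RGCs, and 12.4, 12.9 and 14.7 CPM in medium-treated RGCs, a log2 fold change of -0.40 ± 0.10 (SE, adjusted p = 0.00157). Lars2, the mitochondrial leucyl enzyme, was also called lower, at -0.19 (adjusted p = 0.036), and lost the call without aging replicate 2 or 3 or normal replicate 1 or 3 (adjusted p = 0.0968, 0.0863, 0.168 and 0.0925), with DESeq2 (adjusted p = 0.089) and with limma on log2(FPKM + 1) (adjusted p = 0.172). Without Tarsl2, 3 of 17 genes rose and 2 fell.

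Synthetases fall into class I and class II by the fold of their catalytic domain, and the decrease was seen in both. Of the 9 cytosolic class I genes, 8 fell and 0 rose with a median log2 fold change of -0.54, and of the 10 class II genes 6 fell and 3 rose with a median of -0.39, Eprs with its parts of either class being left aside. A split chosen after the values were seen set the 8 cytosolic enzymes of the multisynthetase complex (Eprs, Iars, Lars, Mars1, Qars, Rars, Kars and Dars) beside the other 12. In the complex 5 fell and 2 rose with a median of -0.42, and outside it 10 fell and 1 rose with a median of -0.64. The difference between these classes was not tested.

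The second comparison asked what the conditioned medium changed in aging RGCs. Per the study's methods, USCs were grown in a medium made for urine stem cells, and RGCs in high glucose medium with serum. No group received the USC medium without conditioning, so products of the USCs and the medium itself cannot be told apart. Nearly all cytosolic synthetase genes were higher with the medium, none was lower, and most mitochondrial ones did not pass the test. Of the 20 cytosolic genes, 19 rose and 0 fell, against 27.1% and 26.0% of all genes tested. At a fold of at least 1.5, 8 rose and 0 fell, against 3.47% and 8.34%. The median log2 fold change was 0.51, with a range of 0.09 to 0.88, beside -0.00666 over all genes tested, whose interquartile range was -0.24 to 0.19. Of the 18 mitochondrial genes 7 rose, 0 fell and 11 were not called, 0 by 1.5-fold, with a median of 0.17. Without TMM factors 5 rose with a median of 0.09, and with limma on log2(FPKM + 1) 5 rose with a median of 0.10. The larger SEs of that class limited its calls here too. Nars2, at 0.26 ± 0.11 (SE, adjusted p = 0.0521), was not called, while the cytosolic Qars, at 0.25 ± 0.036 (SE, adjusted p = 1.4e-06), was. The cytosolic sum was 6193, 6262 and 6069 CPM in medium-treated RGCs, above every aging library, and its mean was 104% of that of normal RGCs. The mitochondrial sum was 498, 510 and 505 CPM, above every library of either other group, at 116% of the normal mean. The counts of cytosolic genes, 19 and 0, were the same without medium-treated replicate 3, and the count of mitochondrial genes that rose was then 6. This comparison shares the aging libraries with the first, so the values of both are given side by side and no overlap between them was tested.

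The largest increases with the medium were those of Nars at 0.88 ± 0.036 (SE, adjusted p = 1.09e-17), Gars at 0.85 ± 0.037 (SE, adjusted p = 6.19e-17), Lars at 0.83 ± 0.035 (SE, adjusted p = 3.32e-17) and Tars at 0.82 ± 0.038 (SE, adjusted p = 1.9e-16), all as log2 fold changes against aging RGCs. The levels of Nars, Gars and Tars by library are given above, and in each the medium-treated libraries lay above all aging ones. Lars was at 323, 349.6 and 328 CPM in normal RGCs, 200.4, 204 and 200.0 CPM in aging RGCs, and 352, 368 and 352 CPM in medium-treated RGCs. Rars was at 508, 588 and 542 CPM in normal RGCs, 386, 386 and 382 CPM in aging RGCs, and 647, 644 and 637 CPM in medium-treated RGCs, with a log2 fold change of 0.74 ± 0.037 (SE, adjusted p = 1.45e-15). Its 3 medium-treated libraries were above all libraries of both other groups. Wars, Farsb and Sars were the remaining genes past 1.5-fold, with log2 fold changes of 0.69, 0.60 and 0.59. Cars, which had fallen most in aging RGCs, rose by 0.53 ± 0.040 (SE, adjusted p = 8.29e-12), which left it below its normal level. Of the genes that had not fallen in aging RGCs, Hars rose by 0.42 ± 0.044 (SE, adjusted p = 3.37e-09), Qars by 0.25 ± 0.036 (SE, adjusted p = 1.4e-06), Dars by 0.22 ± 0.040 (SE, adjusted p = 3.85e-05) and Kars by 0.20 ± 0.033 (SE, adjusted p = 8.48e-06). Farsa did not pass the test, at 0.09 (adjusted p = 0.15).

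In the mitochondrial class, Wars2, the mitochondrial tryptophanyl enzyme (chr3:99141068-99239186, plus strand), rose most, by 0.58 ± 0.082 (SE, adjusted p = 9.98e-07) on the log2 scale. It was at 14.2, 15.4 and 14.6 CPM in normal RGCs, 16.8, 14.5 and 17.9 CPM in aging RGCs, and 24.4, 25.4 and 23.6 CPM in medium-treated RGCs, so the medium-treated libraries stood above the 6 others. Rars2, the mitochondrial arginyl enzyme, was at 27.2, 27.8 and 26.3 CPM in normal RGCs, 23.6, 26.1 and 27.5 CPM in aging RGCs, and 33.8, 38.5 and 35.1 CPM in medium-treated RGCs, a log2 fold change of 0.47 ± 0.070 (SE, adjusted p = 1.67e-06). Aars2, the mitochondrial alanyl enzyme, was at 14.1, 13.0 and 13.6 CPM in normal RGCs, 12.2, 13.9 and 13.0 CPM in aging RGCs, and 16.4, 17.2 and 16.5 CPM in medium-treated RGCs, a log2 fold change of 0.36 ± 0.088 (SE, adjusted p = 0.00109). Both showed the same order, with normal and aging libraries overlapping and the medium-treated ones above them. Tars2, the mitochondrial threonyl enzyme, was at 39.1, 36.4 and 40.1 CPM in normal RGCs, 42.8, 41.3 and 43.0 CPM in aging RGCs, and 50.2, 55.0 and 51.2 CPM in medium-treated RGCs, a log2 fold change of 0.30 ± 0.056 (SE, adjusted p = 5.25e-05), a call lost with limma on log2(FPKM + 1) (adjusted p = 0.0583). Fars2 rose by 0.31 ± 0.10 (SE, adjusted p = 0.0109), a call that was lost without aging replicate 2 (0.25, adjusted p = 0.0647) or medium-treated replicate 3 (0.24, adjusted p = 0.0725), without TMM factors (adjusted p = 0.0532) and with limma on log2(FPKM + 1) (adjusted p = 0.0551). Iars2 rose by 0.19 (adjusted p = 0.000114). The 4 genes of the mitochondrial class by symbol that had risen in aging RGCs were not called here, Sars2 at 0.12 (adjusted p = 0.411), Tarsl2 at -0.01 (adjusted p = 0.957), Mars2 at -0.04 (adjusted p = 0.744) and Yars2 at 0.15 (adjusted p = 0.0742). Vars2, Nars2, Ears2, Hars2 and Pars2 were not called in any of the 3 comparisons.

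The third comparison set medium-treated against normal RGCs, so that a gene back at its normal level would show no difference. The cytosolic genes lay on both sides of normal, and 10 of the 18 mitochondrial ones were above it. Of the 20 cytosolic genes 11 were higher, 4 lower and 5 not called, against 30.6% higher and 29.9% lower of all genes tested, and 0 differed by 1.5-fold in either direction, against 4.57% and 11.0%. Their median log2 fold change was 0.10, with a range of -0.46 to 0.48, beside -0.0127 for all genes tested. Of the 18 mitochondrial genes 10 were higher, 1 lower and 7 not called, 2 of them higher by 1.5-fold, with a median of 0.27. Without TMM factors 8 were higher and 2 lower with a median of 0.17, and with limma on log2(FPKM + 1) 6 were higher with a median of 0.17. In the main fit without Tarsl2, 9 of 17 were higher and 1 lower, with a median of 0.23. The scaling matters here, since without TMM factors the median of all genes tested moved from -0.0127 to -0.1131 and that of the cytosolic genes from 0.097 to -0.003, while the cytosolic median lay 0.11 above that of all genes tested in both settings and the mitochondrial one 0.28 above it, and 8 cytosolic genes instead of 11 were then higher and 7 instead of 4 lower.

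The 4 cytosolic genes below normal were Cars at -0.46 ± 0.038 (SE, adjusted p = 2.54e-11), Sars at -0.23 ± 0.037 (SE, adjusted p = 3.61e-06), Iars at -0.19 ± 0.032 (SE, adjusted p = 8.36e-06) and Aars at -0.09 ± 0.033 (SE, adjusted p = 0.0257). The call of Aars was lost without medium-treated replicate 3 or normal replicate 2 or 3 (adjusted p = 0.15, 0.0791 and 0.0556). The 5 that did not pass the test were Nars, Gars, Yars, Wars and Mars1, with log2 fold changes of -0.05, -0.05, -0.08, 0.01 and 0.02 and SEs of 0.035 to 0.055. Hars stood highest above normal, at 98.6, 104 and 106 CPM in normal RGCs, 106, 112 and 103 CPM in aging RGCs, and 138, 151 and 143 CPM in medium-treated RGCs, a log2 fold change of 0.48 ± 0.043 (SE, adjusted p = 1.59e-10). Farsb was at 101, 107 and 104 CPM in normal RGCs, 97.1, 91.1 and 90.2 CPM in aging RGCs, and 143, 143 and 136 CPM in medium-treated RGCs, a log2 fold change of 0.43 ± 0.041 (SE, adjusted p = 3.43e-10). Both had every medium-treated library above every normal one, and only Farsb was called lower in aging RGCs. Kars was at 237, 238 and 251 CPM in normal RGCs, 271, 267 and 269 CPM in aging RGCs, and 314, 311 and 303 CPM in medium-treated RGCs, a log2 fold change of 0.36 ± 0.033 (SE, adjusted p = 3e-10). Dars was at 130.3, 138 and 135 CPM in normal RGCs, 152, 141 and 144 CPM in aging RGCs, and 169.6, 174 and 163 CPM in medium-treated RGCs, a log2 fold change of 0.33 ± 0.040 (SE, adjusted p = 3.19e-08). Levels of Kars and Dars were ordered normal, aging and medium-treated, with no overlap at either step. Of the mitochondrial class, Wars2 at 0.73 ± 0.082 (SE, adjusted p = 1.07e-08) and Sars2 at 0.64 ± 0.12 (SE, adjusted p = 3.87e-05) were past 1.5-fold, followed by Tarsl2 at 0.47, Yars2 at 0.46 and Tars2 at 0.44. Lars2 was the only member of that class called lower, at -0.22 (adjusted p = 0.0114), and was not called without medium-treated replicate 3 or normal replicate 1 (adjusted p = 0.0711 and 0.0784).

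The cytosolic and the mitochondrial enzyme for the same amino acid were then compared within each library, as the log2 ratio of their CPM, which no library scaling can change. Aging RGCs had a lower ratio than normal RGCs, with no overlap, in 13 of 18 pairs, a higher one in 2, and overlapping ratios in 3, with a median difference of -0.57. Over all ordered pairs of the 12054 tested genes above 0 in every library, 25.4% had a ratio that was lower with no overlap, and the same share one that was higher. With the medium, the ratio was above that of aging RGCs in 13 pairs and below it in 1, against 28.5% each way, with a median difference of 0.32. Against normal RGCs it was lower in 9 pairs and higher in 5, against 30.8% each way. Eprs is in 2 pairs and Fars2 in 2, so the pairs share genes, and no test was made. Sars over Sars2 went from 6.24, 6.53 and 6.23 in normal RGCs to 5.02, 4.90 and 5.04 in aging RGCs and 5.51, 5.46 and 5.40 in medium-treated RGCs, the widest shift of all. Cars over Cars2 went from 4.41 ± 0.21 (SD, n = 3) to 3.16 ± 0.25 and 3.64 ± 0.13. Both genes of the serine pair contributed, whereas Cars2, the mitochondrial cysteinyl enzyme, was itself not called in aging RGCs, at 0.27 (adjusted p = 0.0705). The 2 pairs with a higher ratio in aging RGCs were those of Fars2, whose own level fell, and for Farsa over Fars2 the ratio was 1.74, 1.54 and 1.62, then 2.24, 2.44 and 2.16, then 2.14, 2.11 and 1.92. Hars over Hars2 and Vars over Vars2 were among the ratios that overlapped between aging and normal RGCs.

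**Figure D4:**
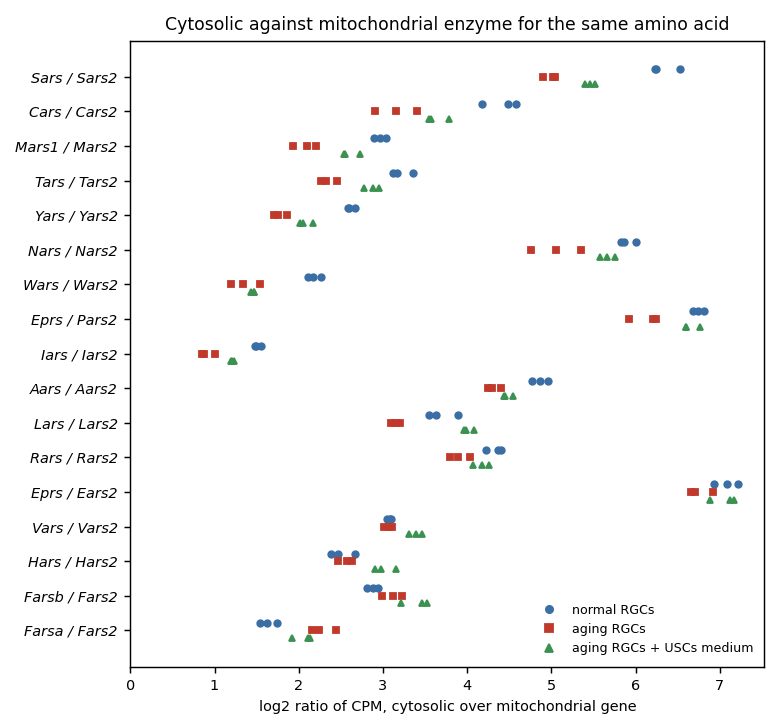
Log2 ratio of the CPM of the cytosolic gene to that of the mitochondrial gene for the same amino acid, for 17 of the 18 pairs and all 9 libraries, with circles for normal RGCs, squares for aging RGCs and triangles for medium-treated RGCs. In 13 of the 17 pairs drawn the 3 aging points lie to the left of the 3 normal ones.

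The 6 members outside these classes changed by less than 1.5-fold in each comparison. Sepsecs was at 20.9 ± 1.44 CPM in normal RGCs, 16.1 ± 2.21 CPM in aging RGCs and 18.2 ± 0.589 CPM in medium-treated RGCs (SD, n = 3). Its log2 fold change in aging RGCs was -0.38 ± 0.089 (SE, adjusted p = 0.000811), and it was not called higher with the medium, at 0.18 (adjusted p = 0.0986). Mtfmt was at 14.4 ± 0.539 CPM in normal RGCs, 12.7 ± 0.592 CPM in aging RGCs and 17.5 ± 0.429 CPM in medium-treated RGCs. It was higher with the medium than in aging RGCs, at 0.47 ± 0.086 (SE, adjusted p = 4.46e-05). Gatc was at 19.1 ± 0.646 CPM in normal RGCs, 18.8 ± 0.674 CPM in aging RGCs and 22.3 ± 0.557 CPM in medium-treated RGCs. It was also higher with the medium, at 0.25 ± 0.074 (SE, adjusted p = 0.00634), a call lost without TMM factors (adjusted p = 0.0575). Gatb was at 9.87 ± 0.801 CPM in normal RGCs, 11.3 ± 1.95 CPM in aging RGCs and 11.1 ± 0.507 CPM in medium-treated RGCs and was called in no comparison. Qrsl1 was at 5.67 ± 0.346 CPM in normal RGCs, 6.82 ± 0.872 CPM in aging RGCs and 7.41 ± 1.42 CPM in medium-treated RGCs. It was called against normal RGCs with the medium only, at 0.38 (adjusted p = 0.0269), a call lost with DESeq2 (adjusted p = 0.0599) and without medium-treated replicate 1 or 2 or normal replicate 3 (adjusted p = 0.101, 0.152 and 0.0816), and also without TMM factors (adjusted p = 0.0988) and with limma on log2(FPKM + 1) (adjusted p = 0.151). Pstk was at 11.4 ± 1.52 CPM in normal RGCs, 11.4 ± 0.848 CPM in aging RGCs and 14.1 ± 1.83 CPM in medium-treated RGCs. It rose with the medium by 0.30 (adjusted p = 0.0249), a call lost without aging replicate 2 or 3 or medium-treated replicate 1 (adjusted p = 0.0844, 0.0766 and 0.198), and with DESeq2 (adjusted p = 0.0536), without TMM factors (adjusted p = 0.0939) and with limma on log2(FPKM + 1) (adjusted p = 0.153). Against normal RGCs, Mtfmt, Gatc and Pstk were called higher with the medium, at 0.28, 0.23 and 0.30 (adjusted p = 0.0054, 0.00956 and 0.0199), and without TMM factors they were not (adjusted p = 0.0688, 0.143 and 0.114). Pstk was also not called without medium-treated replicate 1 or normal replicate 1 (adjusted p = 0.182 and 0.15). Sepsecs was called lower than normal, at -0.20 (adjusted p = 0.0478), a call lost with DESeq2 (adjusted p = 0.129) and without medium-treated replicate 1, 2 or 3 or normal replicate 1 (adjusted p = 0.0721, 0.0786, 0.14 and 0.216).

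For 12 of the 44 members the annotation places exon bases under another gene of the table, and no source used here says whether the counting used strand. The largest stretch was 4652 bases of Pstk under Ikzf5, followed by 2034 of Iars2 under Rab3gap2 and 1326 of Aars under Exosc6. Hars and Hars2 lie head to head on opposite strands and share 195 exon bases, and their counts carried decimals in 6 libraries each. Those of Iars2 carried decimals in all 9 libraries, and those of Cars2, which shares 422 exon bases with Naxd, in 1, so the values of these 4 genes are uncertain. How far shared bases affected the counts of the other such members, Pstk and Aars among them, is not known either.

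Genes of the amino acid response were examined next, since ATF4 and its targets are known to set the level of many synthetase genes. Most of that list fell in aging RGCs and rose again with the medium. Of its 22 genes 21 were tested, Stc2 being at 0, and 19 fell and 1 rose in aging RGCs, 16 of them falling by at least 1.5-fold, with a median log2 fold change of -0.92. Of all genes tested, 23.0% fell, 23.6% rose and 4.82% fell by that fold. With the medium 20 rose and 1 fell, against 27.1% and 26.0% of all genes tested, and 10 rose by at least 1.5-fold, against 3.47%, with a median of 0.58. Against normal RGCs 2 were higher and 16 lower, against 30.6% and 29.9%, with a median of -0.24. Atf4 itself was at 623, 676 and 629 CPM in normal RGCs, 337, 328 and 338 CPM in aging RGCs, and 524, 570.1 and 542 CPM in medium-treated RGCs, with log2 fold changes of -0.94 (adjusted p = 2.31e-18) in aging against normal RGCs and 0.71 (adjusted p = 1.37e-15) with the medium. Asns, the asparagine synthetase, was at 296, 326 and 304 CPM in normal RGCs, 114, 119 and 114 CPM in aging RGCs, and 302, 299.5 and 296 CPM in medium-treated RGCs. It fell by 1.42 on the log2 scale in aging RGCs (adjusted p = 1.12e-21), rose by 1.37 with the medium (adjusted p = 2.93e-21) and did not differ from normal by the test after it, at -0.04 (adjusted p = 0.278). The largest decreases were those of Fgf21, a secreted hormone, at -3.71, Chac1, an enzyme that degrades glutathione, at -2.28, Slc7a11, the cystine transporter, at -1.79 and Trib3, a pseudokinase, at -1.78. These 4 stayed below normal with the medium, at -2.66, -1.12, -0.61 and -0.65. Eif2ak4, the kinase that senses uncharged tRNA, was not called in aging RGCs, at -0.02 (adjusted p = 0.742), and Gcn1, its partner, was higher, at 0.15 (adjusted p = 0.00191). The list had been looked at in these data before, so its direction is not independent evidence.

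The ATF4 response element, whose core is TGATGNAA, was searched on both strands of the RefSeq promoters (GRCm38.p6), each 250 bases before and 50 bases after the annotated start. Promoters of 32 members were in the table, and those of Cars, Nars, Lars, Rars, Wars, Vars, Hars, Hars2, Pars2, Gatb and Sepsecs were among those not in it. The core was found in 5 of 13 cytosolic promoters (38.5%) and in 0 of 15 mitochondrial ones, in 8 of 21 genes of the amino acid response list (38.1%), and in 4.51% of all 27025 genes with a promoter of this length. All 5 belonged to the 9 cytosolic genes with a promoter that fell in aging RGCs, and none to Qars, Dars, Kars and Farsa, the 4 that did not. With the stricter TGATGCAA, which is part of the same motif, the counts were 4 of 13 and 0 of 15, against 1.03% of all genes. The strict match of Aars, 112 to 105 bases before the start, is not among those printed below. For each of these 5 genes 1 match is shown, so that not every match counted is printed, in the direction of the gene, with capitals for the 8 bases that match on either strand, so that TTGCATCA and TTTCATCA are the core read from the opposite strand.
Aars, 10 to 17 bases after the start, chr8:111033840-111033869: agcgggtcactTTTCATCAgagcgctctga
Gars, 30 to 23 bases before the start, chr6:55037960-55037989: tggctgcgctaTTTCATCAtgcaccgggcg
Iars, 8 to 15 bases after the start, chr13:49682126-49682155: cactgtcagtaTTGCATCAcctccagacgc
Tars, 15 to 8 bases before the start, chr15:11399655-11399684, minus strand: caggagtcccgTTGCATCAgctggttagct
Yars, 4 to 11 bases after the start, chr4:129189895-129189924: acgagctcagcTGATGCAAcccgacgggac
A match describes these letters only, and binding was not measured. The part of ATF4 in the changes of these genes was not tested.

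Other genes that serve charged tRNA were counted by list, and as for the synthetases, 23.6% of all genes tested were called higher and 23.0% lower in aging RGCs and 27.1% higher and 26.0% lower with the medium against aging RGCs. The 3 scaffold genes of the multisynthetase complex were higher with the medium than in aging RGCs in 3 of 3 cases, with a median log2 fold change of 0.45, while in aging RGCs 1 rose and 0 fell. That gene was Aimp2, at 28.1, 29.1 and 31.5 CPM in normal RGCs, 34.7, 37.2 and 40.6 CPM in aging RGCs, and 49.6, 46.0 and 49.0 CPM in medium-treated RGCs, a log2 fold change of 0.34 (adjusted p = 8.39e-05) in aging RGCs. Aimp1 and Eef1e1 were called only with the medium, at 0.48 (adjusted p = 1.22e-08) and 0.45 (adjusted p = 4.16e-08) against aging RGCs. Of the 5 genes that deliver charged tRNA to the cytosolic ribosome, 4 were tested and Eef1a2 was at 0. In aging RGCs 1 rose and 2 fell, and with the medium 4 rose, among them Eef1a1, the main elongation factor, with log2 fold changes of -0.22 (adjusted p = 8.85e-08) and 0.33 (adjusted p = 2.82e-11). Of 6 factors of mitochondrial translation, not all of which deliver tRNA, 1 rose and 4 fell in aging RGCs, and 5 rose and 0 fell with the medium. Gfm1, a mitochondrial translocation factor, rose at both steps, by 0.26 (adjusted p = 2.24e-06) and 0.34 (adjusted p = 1.32e-08), and Gfm2, a mitochondrial ribosome recycling factor, went from -0.18 (adjusted p = 0.0383) to 0.61 (adjusted p = 3.51e-08). Of 4 genes that edit mischarged tRNA in trans, 0 were called in aging RGCs by edgeR or DESeq2, with 1 higher and 1 lower at an unadjusted p under 0.05, and of the 4 Aarsd1 alone rose with the medium, by 0.45 (adjusted p = 6.18e-05).

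Of the 9 genes for tRNA maturation and export, 3 rose and 2 fell in aging RGCs, which is near the share over all genes tested, and 5 rose and 0 fell with the medium. Xpot, the exportin that carries tRNA out of the nucleus, was at 283, 291 and 277 CPM in normal RGCs, 197, 200.1 and 195 CPM in aging RGCs, and 268, 272 and 264 CPM in medium-treated RGCs, with log2 fold changes of -0.52 (adjusted p = 2.99e-13) in aging RGCs and 0.44 (adjusted p = 8.56e-12) with the medium. Tsen15 and Tsen34, subunits of the tRNA splicing endonuclease, rose in aging RGCs by 0.54 (adjusted p = 5.29e-05) and 0.34 (adjusted p = 4.99e-05). Of the 19 genes for transcription by RNA polymerase III, which makes tRNA and other small RNAs, 9 rose and 1 fell in aging RGCs, with a median of 0.16, and 4 rose and 3 fell with the medium. Gtf3a, a factor of that polymerase for ribosomal RNA and not for tRNA genes, rose by 0.47 (adjusted p = 6.19e-08) and then fell by 0.36 (adjusted p = 3.75e-06), Gtf3c5 rose by 0.38 (adjusted p = 3.85e-05), Polr3g, a polymerase subunit, rose at both steps by 0.32 and 0.28, and Maf1, the repressor of the polymerase, fell by 0.27 (adjusted p = 2.44e-05). Of 78 mitochondrial ribosomal protein genes 21 rose and 6 fell in aging RGCs, a share of rises near the 23.6% of all genes tested, with a median of 0.06, and 50 rose and 2 fell with the medium, with a median of 0.24. The largest changes with the medium were those of Mrps6, at -0.69 (adjusted p = 1.68e-09), and Mrps22, at 0.68 (adjusted p = 2.72e-10). Against normal RGCs 59 of them were higher with the medium and 2 lower, against 30.6% and 29.9% of all genes tested, with a median of 0.32. The median of the mitochondrial synthetase class was 0.27, or 0.23 without Tarsl2.

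**Figure D5:**
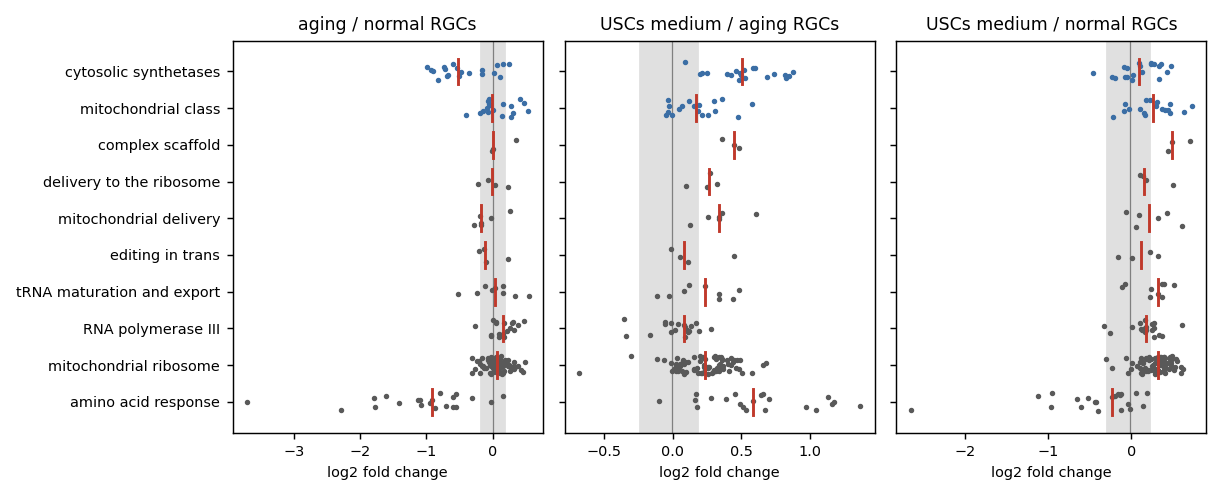
Log2 fold change of each tested gene for the synthetase classes and 8 further lists in the 3 comparisons, with red lines for list medians, a grey line for the median of all genes tested and a grey band for their interquartile range. In aging against normal RGCs the medians of the cytosolic synthetases (-0.52) and the amino acid response (-0.92) lie left of the band, and with the medium against aging RGCs all medians lie right of it except those of the mitochondrial class (0.17), trans editing (0.08) and RNA polymerase III (0.09).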

How the data were processed

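RNA-seq values of 9 libraries were analysed, 3 each of normal, aging and medium-treated RGCs, grouped by their labels. Per the labels, mRNA was enriched with oligo(dT). The authors deposited, for each gene and library, an expected count (an estimated read number, without normalization) and an FPKM value, which corrects for transcript length and depth. The submitters' processing notes name the mm10 genome build. For the aligner and the counter, names were not given in the sources used here. Pathway annotation, which defines the members, is a column of the same table.

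Expected counts were rounded, with 6.92% to 7.38% of values per library not whole. Of 22322 genes, filterByExpr of edgeR 4.0.16 in R 4.3.3 kept 12145, so 45.6% were not tested. The quasi-likelihood F test was run on 1 fit of all 9 libraries, with a mean for each group, TMM factors of 0.956 to 1.034 and 6 residual degrees of freedom, and p-values were adjusted by Benjamini-Hochberg over all genes tested. Genes were called at an adjusted p under 0.05, and again with a fold of at least 1.5. Levels are CPM on the TMM-scaled totals. Within groups, libraries differed by more than counting noise (chi-square per gene 2.21 to 5.78 over 8887 genes), and none were merged. The procedure was tested on simulated data.

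Values are given by library for up to 5 cytosolic and 5 mitochondrial members per comparison, ranked by absolute log2 fold change, that were called and whose groups did not overlap, for Atf4 and Asns, and for single genes of the lists. Up to 4 called genes per list were named, not strictly in order of size, and Eif2ak4 and Gcn1 were named after their values were seen. For RNA polymerase III, Maf1 was named although Gtf3c4 and Polr3b, at 0.305 and 0.29, changed more in aging RGCs. The members, the lists and these rules were chosen with earlier results of these data known. Coordinates are those of GENCODE M21 on GRCm38, in which 22267 genes of the table were found by identifier, and promoters those of RefSeq on GRCm38.p6. Alternatives were DESeq2 1.42.0, other scaling factors and filters, limma 3.58.1 on log2(FPKM + 1) and log2(FPKM + 0.1), only the groups compared, a replicate block, each library left out, and members left out. A member counted in the totals is not reported here by name, and is not drawn. The other assays of the study are not analysed here.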

Additional observations from a re-analysis of the deposited data

How the results depend on the processing

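Of the members called, 23 of 25 in aging against normal RGCs, 24 of 29 in medium-treated against aging RGCs and 16 of 31 in medium-treated against normal RGCs kept their call and direction under every alternative fit. In the first comparison the calls lost in any were those of Dars and Lars2, and in the second those of Fars2, Gatc, Pstk and Tars2 were among them. Directions turned for Tars and Lars in medium-treated against normal RGCs, where without TMM factors the log2 fold changes were -0.007 and -7.9e-05, and for Tars -0.006 with either FPKM scale in limma. Without TMM factors the median of all genes tested was then -0.1131, and on log2(FPKM + 0.1) it was -0.1026.

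In aging against normal RGCs, a fold of at least 1.5 left 0 cytosolic genes higher and 9 lower, and 0 mitochondrial genes higher and 0 lower. The count of mitochondrial genes called lower, 2 in the report, was 1 with DESeq2, 4 with a filter of 1 CPM in 3 libraries, 4 with upper-quartile factors, 4 without TMM factors, 1 without the members that share exon bases (chosen after seeing the data), and 1 to 4 with a library left out. With a library left out, the mitochondrial median was -0.049 to 0.031, and pairs with a higher ratio numbered 2 to 4, the 4 without normal replicate 3.

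In medium-treated against aging RGCs, a fold of at least 1.5 left 8 cytosolic and 0 mitochondrial genes higher. The cytosolic median was 0.481 with upper-quartile factors, 0.431 without TMM factors, 0.438 on log2(FPKM + 0.1) and 0.430 on log2(FPKM + 1). The mitochondrial median was 0.093 without TMM factors, 0.118 on log2(FPKM + 0.1) and 0.098 on log2(FPKM + 1). With FPKM, 0 pairs had a lower ratio in place of 1 and 11 a higher one in place of 13, and with a library left out 13 to 16 had a higher one.

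In medium-treated against normal RGCs, a fold of at least 1.5 left 0 cytosolic genes higher and 0 lower, and 2 mitochondrial genes higher and 0 lower. Cytosolic genes called higher were 7 on log2(FPKM + 1), and those called lower were 7 with upper-quartile factors and 7 without TMM factors. The cytosolic median was 0.061 with upper-quartile factors, -0.003 without TMM factors, -0.002 with either FPKM scale and 0.068 to 0.129 with a library left out. The mitochondrial median was 0.166 without TMM factors, 0.207 on log2(FPKM + 0.1) and 0.167 on log2(FPKM + 1). Mitochondrial genes called higher were 6 with either FPKM scale, and those called lower were 2 without TMM factors and 0 to 1 with a library left out, 0 without medium-treated replicate 3 or normal replicate 1. The cause of these shifts was not tested beyond the scaling.

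Libraries of the same replicate number had deviations with correlations of -0.0762 to 0.0483, and the numbers were therefore not taken as pairs. With the replicate block the counts were the same as without it, such as 15 cytosolic genes lower in aging RGCs and 19 higher with the medium. Depth limits the least abundant members most, Ears2 having 78 to 113 counts per library.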
